A study of Homo sapiens with 2 samples.

Results

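CD2, CD5, CD6 and CD7 encode surface proteins carried by nearly all T cells and by most T-cell leukaemias, and the accessible chromatin around these 4 genes was compared between Jurkat and RPMI-8402. Both are established human lines grown from T-ALL, an acute leukaemia of immature T cells, cultured in RPMI-1640 medium with tetracycline-free serum, and the labels name no treatment or genetic change. Accessibility was read by ATAC-seq, in which the transposase Tn5 cuts and tags open DNA, with 1 library per line. A peak belonged to the set when its summit, the base with the most signal, fell in 1 of 3 windows of the hg19 genome. These were chr1:117250000-117350000 around CD2, chr11:60700000-60930000 around the neighbours CD6 and CD5, and chr17:80255000-80295000 around CD7. They held 29 of 49792 peaks, 17 of 25189 in Jurkat and 12 of 24603 in RPMI-8402. Gene ends came with this rule and were not checked against a hg19 annotation, and exons, introns and UTRs were not analysed here. With 1 library per line there was no replicate error and no test between the lines.

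CD2 is an adhesion receptor that binds CD58 on the partner cell, and in transgenic mice the human gene is known to depend on a locus control region in its 3′ flank. CD5 and CD6 are related receptors of the scavenger receptor family that dampen or tune signals of the T-cell receptor. Their genes lie side by side, and CD6 binds ALCAM on other cells. CD7 is an immunoglobulin-family protein that appears early in the T lineage, and SECTM1, the coding gene next to CD7 in RefSeq, encodes a ligand of it. Accessibility at a gene is not its expression, which was not measured here.

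The signal of a peak is given as its summit pileup, the count piled up over the summit, solved from the fold enrichment and p-value the authors deposited. Its unit is called fragments here, although the sources used do not say whether fragments, reads or Tn5 cuts were piled up. Each pileup is followed by its exact 95% Poisson interval. Such intervals hold the counting error alone. They take no account of the summit being the highest base of a peak that passed the calling threshold. They would be too narrow if PCR duplicates were left in or if a fragment was counted more than once. Over a whole list the median pileup was 37 (Jurkat) and 38 (RPMI-8402), and the weakest called peaks had 9 and 10. A peak counted as shared when it overlapped a peak of the other line by at least 1 bp. The ratio of RPMI-8402 to Jurkat pileup is given relative to its median over all 16494 pairs that overlapped 1 to 1, which was −0.17 on the log2 scale before this centring.

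Around CD2, each line had a single peak, and it lay just past the 3′ end of the gene rather than at its start. In Jurkat it spanned chr1:117311905-117312643, with a pileup of 45 (32.8 to 60.2) and a deposited enrichment of 8.32-fold. In RPMI-8402 it spanned chr1:117312123-117312597, with a pileup of 29 (19.4 to 41.6) and 7.01-fold enrichment. The RPMI-8402 peak lay wholly inside the Jurkat peak, and its summit was 103 bp farther from the gene. The summits sat 483 bp past the gene end in Jurkat and 586 bp past it in RPMI-8402. The pileup was thus higher in Jurkat, with a centred log2 ratio of −0.46, but the interval of that ratio, −1.19 to 0.24, included 0. A difference was therefore not detectable at this depth. On the deposited fold enrichment, centred in the same way, the log2 ratio was 0.00. The background was 4.53 fragments per base under the Jurkat peak and 3.28 under the RPMI-8402 peak. Shared pairs within 5 Mb on either side, outside the window, had a median ratio of 0.05 (64 pairs).

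The CD2 start site itself, at position 117297086 of chromosome 1, had no peak within 1 kb in either line, and no summit fell in the 14.8 kb of the gene. The nearest peak on the other side, away from the gene, was 183 kb away in Jurkat and 86.6 kb away in RPMI-8402. The genome-wide background of a list was taken as the lowest background solved at any of its peaks. At that background a call needed 9 fragments at the summit for Jurkat and 10 for RPMI-8402, so weaker signal at the start site would not have been listed. The promoter is printed because the gene's only peak lies elsewhere. It runs from 250 bases before to 50 bases after the RefSeq start, on the plus strand of GRCh38.p14 at chr1:116754180-116754479, a build that was not converted to hg19. Capitals mark GGAA, the core of ETS factor sites, on either strand.

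CD2 promoter: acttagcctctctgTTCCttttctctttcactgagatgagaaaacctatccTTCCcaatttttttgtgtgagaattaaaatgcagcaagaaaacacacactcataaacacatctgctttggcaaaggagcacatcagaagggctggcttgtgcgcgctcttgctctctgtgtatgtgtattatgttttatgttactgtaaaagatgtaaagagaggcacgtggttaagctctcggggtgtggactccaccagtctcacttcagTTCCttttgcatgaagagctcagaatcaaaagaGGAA

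The CD2 sequence was 42.3% G and C, against a median of 58.7% over 35116 RefSeq promoters of the same length. It held 4 matches to GGAA, a motif present in 95.5% of those promoters. First bases of the matches lay at −236, −199, 14 and 47, counted from the start site without a position 0. No match was found to TGTGGT, the RUNX motif, which 13.1% of promoters held. The GATA motif AGATAA (10.3% of promoters) and the TCF and LEF motif CTTTGA (12.9%) had no match either. The same held for the E-box CAGCTG (17.9%), the E-box CAGGTG (20.6%), the TATA box TATAAA (11.5%) and the SP motif GGGCGG (45.0%). Both strands were searched. Of the 4 genes, CD2 was matched in the promoter table, and CD5, CD6 and CD7 were not.

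**Figure D1:**
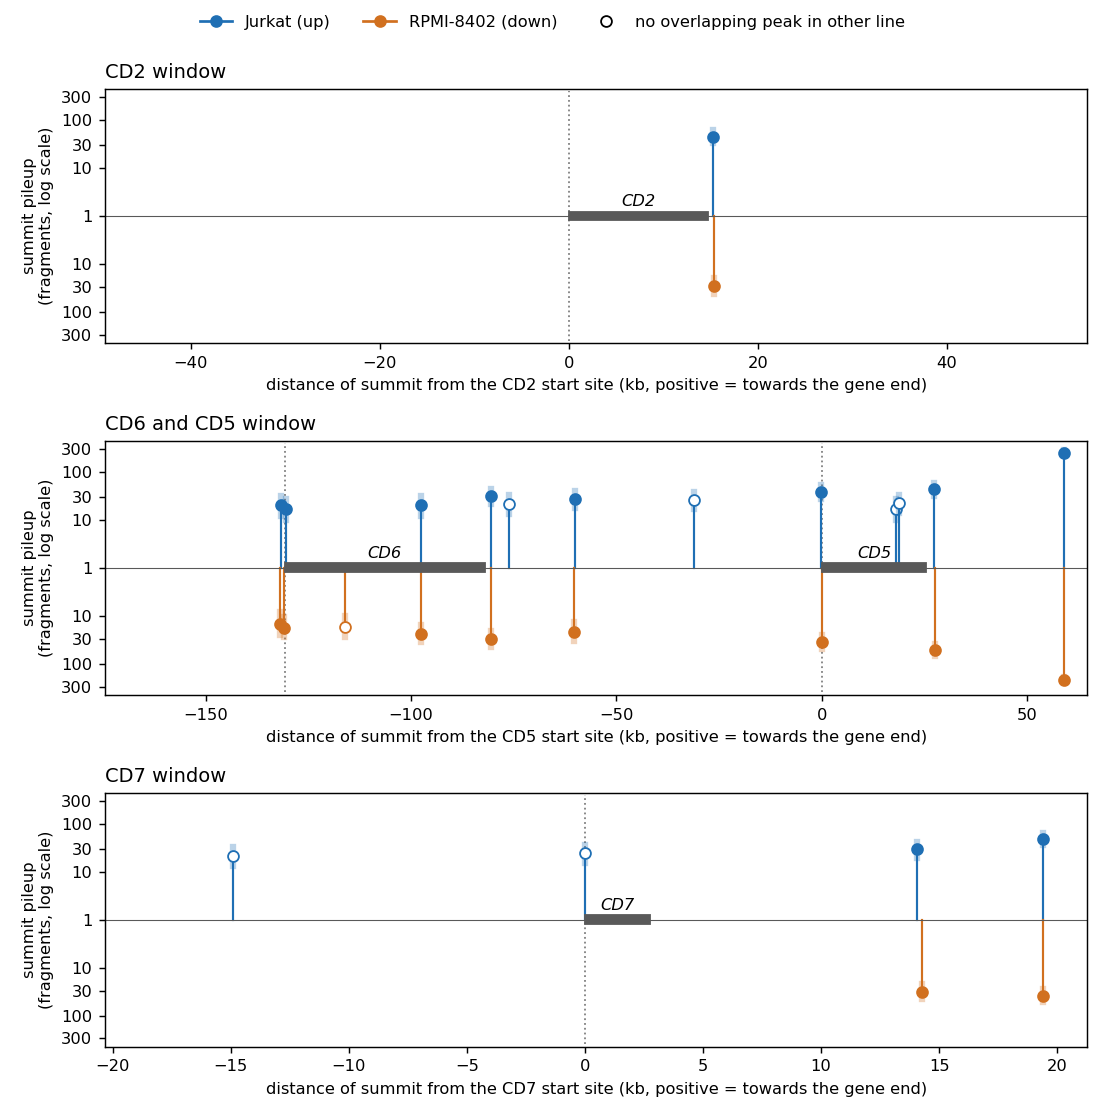
Summit pileup (fragments, log scale from 1) of every peak in the 3 windows against distance from a start site in kb, with Jurkat drawn upwards, RPMI-8402 downwards, pale bars for 95% Poisson intervals, grey bars for genes and dotted lines for start sites. CD2 has its only peak past the gene end in both lines, CD5 has a peak over its start site in both lines, and CD7 has one in Jurkat, drawn open because RPMI-8402 has no overlapping peak.

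At CD6, both lines had a pair of weak peaks within 1 kb of the start site at position 60739113 of chromosome 11. The farther one, at chr11:60737989-60738528 in Jurkat and chr11:60738023-60738469 in RPMI-8402, had pileups of 20 (12.2 to 30.9) and 15 (8.40 to 24.7). Its summits, 977 and 986 bp before the start site, were 9 bp apart. In RPMI-8402 this peak was among the weakest of the list, with 0.236% of all peaks having a lower −log10 q. The nearer one differed in place: the RPMI-8402 peak, chr11:60738938-60739298, covered the start site with its summit 33 bp before it, whereas the Jurkat peak, chr11:60739209-60739581, began 96 bp after it. Their pileups were 18 (10.7 to 28.4) in RPMI-8402 and 17 (9.90 to 27.2) in Jurkat. The nearer peaks overlapped by 90 bp, 24.1% of the Jurkat peak, and their summits lay 303 bp apart, a distance that 6.12% of all pairs exceeded. The log2 ratio at the nearer pair was 0.25 (−0.79 to 1.30) and at the farther pair −0.25 (−1.31 to 0.79), so neither pair differed beyond counting error.

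Within the 48.7 kb of CD6 the lines shared a further peak 33.1 kb after the start site. There Jurkat had a pileup of 20 (12.2 to 30.9) and RPMI-8402 one of 24 (15.4 to 35.7). Its RPMI-8402 form was wider, 702 against 426 bp. RPMI-8402 alone had a peak at chr11:60753702-60754327, in the gene body 14.7 kb after the start site, with a pileup of 17 (9.90 to 27.2). That was the only RPMI-8402 peak of the 12 without a Jurkat partner. A shared peak followed 1.53 kb past the gene end in Jurkat and 1.49 kb past it in RPMI-8402. Its pileup was 31 (21.1 to 44.0) in each line, and it was 461 bp wide in Jurkat and 1088 bp wide in RPMI-8402.

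Farther into the stretch between CD6 and CD5 the lines shared another peak, and Jurkat had 2 without a partner. The shared one, 22.0 kb past the end of CD6, had 27 fragments (17.8 to 39.3) at the Jurkat summit and 22 (13.8 to 33.3) at the RPMI-8402 summit. A Jurkat peak at chr11:60793472-60793850, 5.93 kb past CD6, had a pileup of 21 (13 to 32.1). The stronger Jurkat peak, chr11:60838802-60839172, lay 31.0 kb before the CD5 start site, with a pileup of 26 (17.0 to 38.1) and 8.42-fold enrichment. RPMI-8402 had no peak closer than 28927 bp. RefSeq on GRCh38.p14 gives CD5 a length of 33.9 kb against 25.4 kb here, so that the start site and the end of a longer CD5 model were not located. Apart from the peak over the CD5 start site used here, the nearest peak before it was 30.8 kb away in Jurkat. In RPMI-8402 it was 60.1 kb away. These distances exceed the difference between the lengths.

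CD5 had the strongest start-site peak of the 4 genes in both lines. The peak covered position 60869930 of chromosome 11 from 60869460 to 60870449 in Jurkat, with a pileup of 38 (26.9 to 52.2) and 8.69-fold enrichment. In RPMI-8402 it ran from 60869556 to 60870688, with a pileup of 36 (25.2 to 49.8) and 6.80-fold enrichment. These values are near the median of each list: 54.0% of Jurkat peaks and 47.2% of RPMI-8402 peaks had a lower −log10 q. The log2 ratio was 0.09 (−0.61 to 0.79), which included 0. The summit lay 152 bp before the start site in Jurkat and 84 bp after it in RPMI-8402, 236 bp apart, a distance exceeded by 10.4% of pairs.

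Further along CD5, Jurkat had 2 peaks in the gene body, 18.1 and 18.7 kb after the start site, with pileups of 17 (9.90 to 27.2) and 22 (13.8 to 33.3). RPMI-8402 had no overlapping peak there, and its nearest was 8953 and 8148 bp away. Both lines had a peak about 2 kb past the end of CD5, at chr11:60896931-60897679 in Jurkat and chr11:60896989-60897693 in RPMI-8402. Jurkat had a pileup of 44 (32.0 to 59.1) there and RPMI-8402 one of 52 (38.8 to 68.2), a log2 ratio of 0.41 (−0.20 to 1.02). On the deposited fold enrichment that ratio was −0.19, with a background of 3.71 fragments per base under the Jurkat peak and 6.46 under the RPMI-8402 peak. This 3′ peak was higher than the CD5 start-site peak in each line, although the Poisson intervals of the 2 sites overlapped. It lay past the gene end used here, and whether the longer RefSeq model of CD5 reaches it was not checked.

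The highest peak of the CD6 and CD5 window lay at its far edge, 33.7 kb past CD5, where RefSeq lists VPS37C as the next coding gene. It spanned chr11:60928396-60929345 in Jurkat, with a pileup of 251 (221 to 284), and chr11:60928397-60929312 in RPMI-8402, with 219 (191 to 250). Both summits fell on the same base. The log2 ratio there was −0.03 (−0.29 to 0.24), the narrowest interval of the set, and 98.8% of Jurkat peaks had a lower −log10 q. In RPMI-8402 that share was 99.2%. Its assignment to a gene was not made here, because no hg19 annotation was used.

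At CD7, whose gene is 2.74 kb long and runs on the minus strand, the start site was covered by a peak in Jurkat and by none in RPMI-8402. The Jurkat peak, chr17:80275193-80275766, had its summit on the start site, position 80275478, a pileup of 24 (15.4 to 35.7) and 5.04-fold enrichment. The nearest RPMI-8402 peak was 13817 bp away from it. RPMI-8402 had no summit within the gene either. A second Jurkat peak, chr17:80290173-80290702, lay 14.9 kb before the start site, on the side of SECTM1, with a pileup of 21 (13 to 32.1). It too lacked a RPMI-8402 partner, the nearest being 19115 bp away.

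Both lines shared the 2 remaining peaks of the CD7 window, which lay past the gene end. The farther one, at chr17:80255820-80256560 in Jurkat and chr17:80255933-80256480 in RPMI-8402, was 16.6 kb past it in Jurkat, with pileups of 49 (36.3 to 64.8) in Jurkat and 39 (27.7 to 53.3) in RPMI-8402. The nearer one, at chr17:80261201-80261613 in Jurkat and chr17:80260891-80261375 in RPMI-8402, was 11.3 kb past it in Jurkat, with pileups of 29 (19.4 to 41.6) and 32 (21.9 to 45.2). The latter pair overlapped by 175 bp, 42.4% of the Jurkat peak, with summits 223 bp apart. Their backgrounds were high, from 8.23 to 10.4 fragments per base in the 2 lists, against 3.96 under the Jurkat start-site peak. The log2 ratios were −0.16 (−0.80 to 0.48) and 0.31 (−0.46 to 1.09). Pairs within 5 Mb outside this window had a median log2 ratio of 0.01 (103 pairs), and 146 Jurkat and 142 RPMI-8402 peaks lay there.

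**Figure D2:**
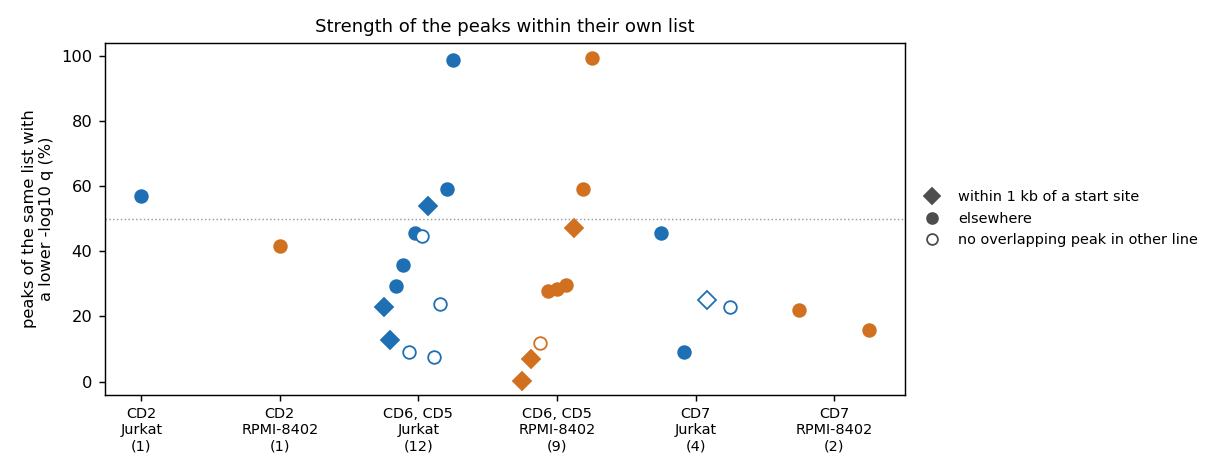
Strength of each peak as the percentage of its own list with a lower −log10 q (vertical axis), by window and line, with diamonds for peaks within 1 kb of a start site and open symbols for peaks without an overlapping peak in the other line. Every open symbol lies below the middle of its list (dotted line), and the CD6 start-site peaks lie lower than the CD5 start-site peak in both lines.

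Over the 3 windows, 11 of 17 Jurkat peaks and 11 of 12 RPMI-8402 peaks were shared. The 6 unshared Jurkat peaks were 35.3% of the set, against 32.6% of all Jurkat peaks without a RPMI-8402 partner. The 1 unshared RPMI-8402 peak was 8.33% of the set, against 31.9% of all RPMI-8402 peaks. With so few peaks the exact 95% binomial intervals of the shared share were wide, 38.3 to 85.8% in Jurkat and 61.5 to 99.8% in RPMI-8402. These intervals treat the peaks of a list as independent. The 11 shared peaks are the same pairs in both lines, so the intervals cannot be used to compare the lines. Most of these peaks were weak, with 13 of 17 in Jurkat and 10 of 12 in RPMI-8402 among the weaker 5 of 10 classes of equal size ranked by the authors' −log10 q. None of the 7 unshared peaks reached the median pileup of its list. Over each whole list the unshared share fell with strength, in Jurkat from 74.6% in the weakest class to 1.07% in the strongest. In RPMI-8402 it fell from 73.2% to 2.03%. Each of the weaker 5 classes had at least 36.9% unshared in Jurkat and 34.4% in RPMI-8402. The list-wide shares of 32.6% and 31.9% are therefore not those of peaks of like strength. In the class of the CD7 start-site peak, 57.4% of Jurkat peaks had no partner in RPMI-8402.

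How far a missing call limits the other line was calculated from the background. The background of each unshared peak was multiplied by the ratio of the genome-wide backgrounds, 1.59 (Jurkat) and 1.96 (RPMI-8402) fragments per base, and the smallest pileup that would have been called there was found. For the CD7 start-site peak it was 17 fragments, so that up to 16 could have gone uncalled against 24 in Jurkat. The centred ratio of RPMI-8402 to Jurkat would then be 0.750, with an exact 95% interval of 0.372 to 1.47 that includes equal signal. At the second CD7 peak the ratio at that limit was 0.750 (0.353 to 1.55), and at the CD5 gene-body peaks it was 0.926 and 0.716, with intervals that both included 1. For the Jurkat peak 5.93 kb past CD6 it was 0.911 (0.451 to 1.81), and for the RPMI-8402 peak in CD6 the ratio of Jurkat to RPMI-8402 was 0.523 (0.214 to 1.21). At the Jurkat peak 31.0 kb before CD5 up to 11 fragments could have gone uncalled on the calculated background against 26, a ratio of 0.476 (0.212 to 0.997). Measured backgrounds did not keep to this scaling at shared peaks. They were 4.53 in Jurkat and 3.28 in RPMI-8402 past CD2, but 3.71 and 6.46 about 2 kb past CD5. The true limits, including the upper end of 0.997, could therefore be higher or lower. A minimum peak length was not taken into account. All 7 peaks were picked because 1 line had a call and the other had none, so these ratios and intervals describe the limits of calling and are no evidence of a difference between the lines.

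Where both lines had a peak, no pair differed beyond counting error. None of the 11 pairs differed by 2-fold or more after centring. Over all 16494 pairs, 9.21% were at least 2-fold higher in RPMI-8402 and 4.89% at least 2-fold higher in Jurkat. The centred log2 ratios of the 11 ran from −0.46 past CD2 to 0.43 in CD6, with a median of 0.09, and the interval of each included 0. These intervals are wide, and 7 of them reached past a 2-fold difference in 1 direction or the other, so equal accessibility was not shown. Of the 11 ratios, 6 were above 0 and 5 below, and 10 lay between the quartiles of all pairs, −0.40 and 0.46. Scaled by each library's genome-wide background in place of centring, none was above 0, and the median over all pairs was then −0.47. On the deposited fold enrichment, centred on its own median, 6 were below 0 after rounding and the CD2 pair was at 0.00. The values ran from −0.49 to 0.39.

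**Figure D3:**
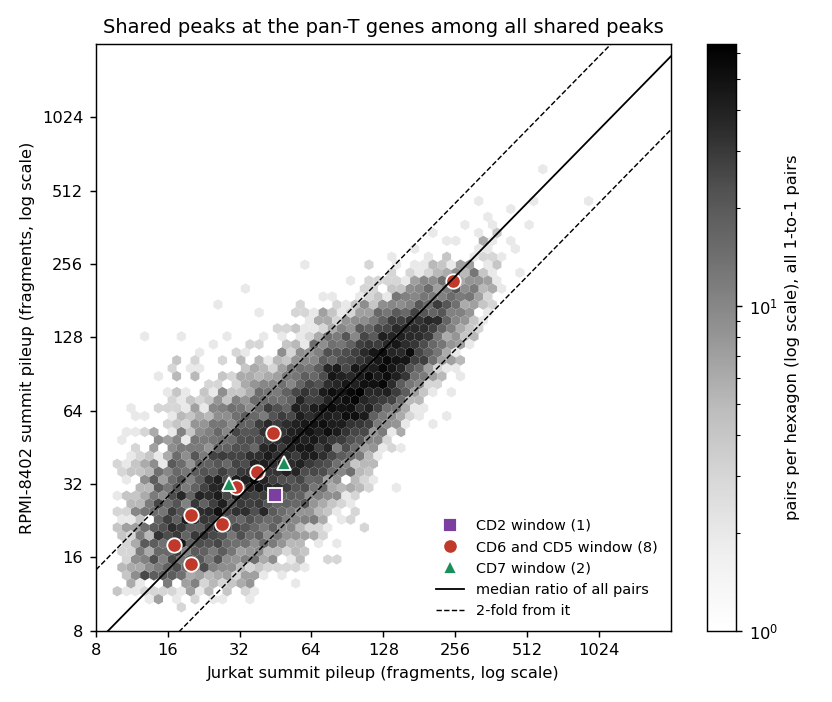
Summit pileup in RPMI-8402 against Jurkat (fragments, log scales) for the 11 pairs of the 3 windows, over the density of all 16494 pairs in grey, with the median ratio as a solid line and 2-fold distances from it dashed. All coloured symbols lie between the dashed lines, and the highest is the peak 33.7 kb past CD5.

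The windows were also set beside their surroundings. The 8 pairs of the CD6 and CD5 window had a median log2 ratio of 0.13, from −0.25 to 0.43, while the 167 pairs within 5 Mb outside it had a median of 0.20 (quartiles −0.13 and 0.51). In the same surroundings Jurkat had 211 and RPMI-8402 had 224 peaks. Summits of the 11 pairs were a median of 103 bp apart, against 67.0 bp over all pairs, and 4 of the 11 were more than 200 bp apart, as were 13.4% of all pairs. Those 4 were the nearer of the CD6 start-site pairs, the CD5 start-site pair, the pair about 2 kb past the end of CD5 and the nearer pair past CD7.

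**Figure D4:**
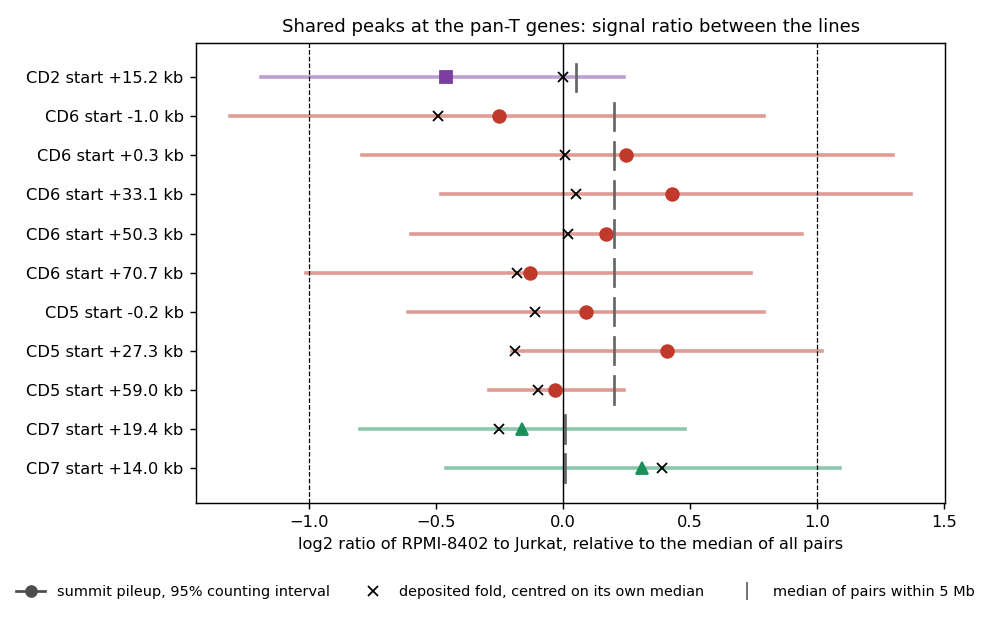
Log2 ratio of RPMI-8402 to Jurkat at the 11 shared pairs, named by the distance of the Jurkat summit from the nearest gene's start site, with symbols and bars for the summit pileup and its exact 95% interval, crosses for the deposited fold enrichment and grey ticks for the median of pairs within 5 Mb. Every bar crosses 0, and every symbol lies between the dashed lines at a 2-fold difference.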

How the data were processed

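ATAC-seq libraries of Jurkat and RPMI-8402 were each deposited as 1 narrowPeak list, so the authors called peaks per library. The submitters' processing notes name Bowtie2, Picard, SAMtools, MACS2 2.1.1.2016030 and hg19, without roles. How reads were filtered, duplicates handled and Tn5 cuts offset is not given in the sources used here. The deposited values are a score (10 times −log10 p, in whole numbers), −log10 p-values and q-values, and a fold enrichment ratio over the background. Library totals are not given, so depth is known only through the background.

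MACS2 is known to set fold as (pileup + 1)/(background + 1) and p as a Poisson upper tail. Solving both gave a whole pileup, within 0.01, for 100% of peaks in each list. Mitochondrial peaks were left out. Ratio intervals are exact conditional binomial, and they compare the summit of each line, which can be different bases. The solver and the overlaps were checked on simulated peaks with scipy 1.17.1, pandas 2.3.3 and numpy 2.4.6 under Python 3.11.15.

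All 29 peaks are described, with positions for start-site peaks, the 3 highest per window and other sites named. Strands of CD5, CD6 and CD7 are textbook knowledge. The genes and windows were chosen with earlier results of these data known, and the limits at missing calls were calculated after seeing the peaks. Promoters of related genes and cell type markers, planned, were not analysed, as they need hg19 gene positions. The identity of the lines was therefore not checked against markers.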

Additional observations from a re-analysis of the deposited data

How the results depend on the processing

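Alternatives covered the calling threshold, the windows, the definition of a shared peak and the scaling. Of 56 alternative values, 43 stayed within their limits (1.5 times a count, or the counting interval of a ratio) and 13 did not. With −log10 q of at least 10, peaks numbered 7 of 12 for CD6 and CD5 in Jurkat. For CD7 they numbered 1 of 4 in Jurkat and 0 of 2 in RPMI-8402, so the CD7 start-site peak is lost and 0 CD7 peaks are shared. All CD6 peaks within 1 kb of the start site are lost too, with −log10 q from 3.36 to 8.98. CD5 alone keeps a start-site peak, with 23.8 in Jurkat and 18.3 in RPMI-8402. Within 5 kb of CD7 there was 1 Jurkat and 0 RPMI-8402 peaks. Shared CD7 peaks fell to 1 in each line at 50% reciprocal overlap, and to 1 in Jurkat with the summit inside the other peak. The median ratio for CD6 and CD5, 0.13, became −0.34 scaled by background, −0.11 on the deposited fold and −0.07 centred on pairs within 5 Mb (added after seeing the data). Scaling by background is not centred, and the median over all pairs was −0.47 on that scale. No replicate could be left out. No paired analysis was possible because there is a single library for a line.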
